A study of Mus musculus with 96 samples.

Results

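Imprinted genes are expressed mainly from the allele of one parent, and the 42 mouse imprinted genes described here were taken from a fixed list of names, all of which were found among the 36935 gene symbols of the count table. By the parent whose allele is active in tissues where they are imprinted, 17 are counted as maternally expressed and 25 as paternally expressed. Of the latter, 20 depend on a DNA methylation mark and 5 (Sfmbt2, Jade1, Gab1, Smoc1 and Slc38a4) on maternal H3K27me3, a repressive histone mark. For 9 of the 42 genes (Grb10, Gnas, H13, Ube3a, Commd1, Trappc9, Inpp5f, Tssc4 and Impact) the imprint depends on tissue or isoform. The 42 genes lie on 11 autosomes, 16 of them on chromosome 7.

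The study sequenced polyadenylated RNA of single metaphase II (MII) oocytes and single 2-cell blastomeres from a mouse line that carries P620A, a change of the protein encoded by Padi6. By label there are 22 oocytes from Padi6+/+ females, 22 oocytes from Padi6P620A/P620A females, 22 blastomeres of Padi6+/+ 2-cell embryos, 22 blastomeres of Padi6MatP620A/+ 2-cell embryos, which carry the variant from the mother, and 8 negative controls. The oocyte and embryo groups share superovulation: females of 4 to 8 weeks received pregnant mare serum gonadotropin and, 52 hours later, human chorionic gonadotropin, and were sacrificed 13 hours after that, and the males used for fertilisation were 8 to 12 weeks old. The mother of each cell is not named, so a group cannot be split by animal, each group counted as 1 sample, and no test between groups was made.

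Imprints are laid down in the germ line. In growing oocytes most maternal imprints are set as DNA methylation of CpG sites at CpG-rich control regions, and a smaller set of genes is silenced on the maternal allele through H3K27me3. After fertilisation the methylated copies are protected from demethylation by the zinc finger protein ZFP57 and its partners, and the genes of 1 cluster often follow a shared control region or a long noncoding RNA such as Kcnq1ot1, which silences neighbouring genes on the paternal chromosome. An unfertilised oocyte carries only maternal alleles, and gene counts do not separate alleles in either stage, so the values below are gene levels and not imprinting states.

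The promoter sequences of 5 members that the results turn on are shown to place their CpG content beside their levels: Mest and Snrpn have high levels per length in both classes, Peg3 shares its start region with Usp29, and Phlda2 and Kcnq1ot1 belong to 1 cluster. Each runs from 250 bases before to 50 bases after a RefSeq transcript start in GRCm38.p6, an assembly older than the one the counts were made on, and each is the start with the most CpG sites among those listed. Capitals mark CpG sites.
Mest, chr6:30737800-30738099, plus strand: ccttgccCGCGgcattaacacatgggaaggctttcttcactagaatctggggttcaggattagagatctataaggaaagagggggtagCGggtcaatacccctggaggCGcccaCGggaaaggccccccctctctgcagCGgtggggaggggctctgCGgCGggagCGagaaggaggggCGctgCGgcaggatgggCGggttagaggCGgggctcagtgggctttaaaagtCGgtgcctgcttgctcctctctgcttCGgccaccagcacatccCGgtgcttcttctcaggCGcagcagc
Snrpn, chr7:60005150-60005449, minus strand: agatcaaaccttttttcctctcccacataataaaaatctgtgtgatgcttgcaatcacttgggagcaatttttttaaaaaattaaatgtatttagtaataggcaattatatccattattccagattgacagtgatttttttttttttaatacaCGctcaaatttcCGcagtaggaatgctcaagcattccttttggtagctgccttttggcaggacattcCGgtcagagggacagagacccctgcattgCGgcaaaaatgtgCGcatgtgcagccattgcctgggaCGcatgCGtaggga
Peg3, chr7:6730370-6730669, minus strand: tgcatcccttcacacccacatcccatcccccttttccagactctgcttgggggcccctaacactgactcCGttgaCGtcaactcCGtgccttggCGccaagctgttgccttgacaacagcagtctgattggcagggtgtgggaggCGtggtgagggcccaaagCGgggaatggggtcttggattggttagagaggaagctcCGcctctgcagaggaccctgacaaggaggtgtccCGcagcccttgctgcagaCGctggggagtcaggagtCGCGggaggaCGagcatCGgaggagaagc
Phlda2, chr7:143502475-143502774, minus strand: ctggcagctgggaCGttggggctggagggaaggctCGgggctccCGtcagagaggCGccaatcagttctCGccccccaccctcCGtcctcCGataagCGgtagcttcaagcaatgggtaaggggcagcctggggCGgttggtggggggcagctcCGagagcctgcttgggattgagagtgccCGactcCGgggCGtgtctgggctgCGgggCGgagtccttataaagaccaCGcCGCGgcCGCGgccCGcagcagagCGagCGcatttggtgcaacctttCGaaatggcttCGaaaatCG
Kcnq1ot1, chr7:143296498-143296797, minus strand: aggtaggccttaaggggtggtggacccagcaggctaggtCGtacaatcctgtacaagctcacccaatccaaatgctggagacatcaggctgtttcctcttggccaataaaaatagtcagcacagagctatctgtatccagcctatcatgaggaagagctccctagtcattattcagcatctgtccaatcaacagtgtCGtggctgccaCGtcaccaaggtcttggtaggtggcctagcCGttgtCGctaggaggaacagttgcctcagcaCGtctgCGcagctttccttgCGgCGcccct

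The windows hold 17 CpG sites at Mest, 7 at Snrpn, 13 at Peg3, 26 at Phlda2 and 9 at Kcnq1ot1. Of the 42 members, 33 have a window in the RefSeq table, with a median of 17 CpG sites by gene, beside 8 over 27025 genes. The letters TGCCGC, the unmethylated form of the ZFP57 motif, were searched on both strands. They occur in at least 1 window of 11 of 33 members (33.3%) and of 13.1% of all genes. Counted by window, they occur in 22.2% of member windows and 11.6% of all windows. At Mest they occur 2 times, at Snrpn 1 time, and in the other 3 windows printed above they do not occur. A match describes letters only. The Peg3 and Usp29 windows share 263 of 300 bases on opposite strands.

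Of 96 libraries, numbered as in their labels, 79 had at least 100000 counts and 4000 genes detected. Stage was read from RNA, not from labels: 39 libraries had Mos, a kinase RNA of the mature oocyte, at 100 CPM (counts per 1000000 counts) or more and are called oocyte-like, 39 had less Mos and a count of Zfp352, a gene switched on at the 2-cell stage, and are called 2-cell-like, and library 86 was in neither class. The threshold fell in a gap, with Mos at 201 CPM in the lowest oocyte-like library (61) and at 63.3 CPM in the highest 2-cell-like one. All 10 oocyte markers had counts in both classes. They took a median of 3.07% of counts in oocyte-like and 0.571% (0.313% to 1.18%) in 2-cell-like libraries. The 2-cell markers took a median of 0.0996% of counts in 2-cell-like against 0.000117% in oocyte-like libraries. The stage labels went against these classes in many libraries: 23 oocyte-like libraries carry a 2-cell label, 26 2-cell-like libraries carry an oocyte label, and 6 libraries labelled negative control fell in the classes. Depth differed, with a median of 3235838 counts (162539 to 5762563) in oocyte-like and 1608305 counts (503644 to 3185910) in 2-cell-like libraries. Somatic markers, of the cumulus and granulosa cells that surround an oocyte, took 0.00506% to 1.15% of counts in oocyte-like libraries, over 0.05% in 17 of 39, and at most 0.0171% in 2-cell-like libraries, where 5 of the 22 markers (Foxl2, Hsd17b1, Ptx3, Inhbb and Thbs1) were at 0. Those 17 libraries held 40.7% of all oocyte-like counts. Library 61 had the highest somatic share (1.15%), and its oocyte marker share of 0.417% lay inside the 2-cell-like range. It had no 2-cell marker count and is oocyte-like by its Mos level alone.

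Together the 42 genes took 1156 CPM of the pooled oocyte-like counts and 843 CPM of the pooled 2-cell-like counts, where a pooled level is the sum of counts over the libraries of a class divided by their summed totals and scaled as CPM. The maternally expressed genes took 609 CPM in the oocyte-like and 429 CPM in the 2-cell-like pool, with library medians of 578 CPM (369 to 1104) and 419 CPM (194 to 659). The paternally expressed genes took 547 CPM and 414 CPM, with library medians of 526 CPM (350.0 to 935) and 430.2 CPM (11.5 to 742). The ranges of the libraries overlapped for both parental groups. The 5 genes of the H3K27me3 group made up 14.2 CPM of the oocyte-like and 26.8 CPM of the 2-cell-like pool. CPM is a share of all counts, so a lower share and less RNA per cell cannot be told apart, and intervals below are 95% intervals that cover counting error only, since PCR copies without molecular identifiers are not independent molecules.

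In the oocyte-like libraries 24 of 42 members had a count in at least 50% of libraries, and in the 2-cell-like libraries 21 did. Thinned to 100000 counts in each library, these counts were 15 and 16. At own depth 7 members had a count in every oocyte-like library (Igf2r, Kcnq1, H13, Gnas, Mest, Snrpn and Inpp5f) and none had one in every 2-cell-like library. H19, the noncoding RNA next to Igf2, had no count in any of the 78 libraries of both classes, and 0 of 39 libraries allows a share of up to 7.69% in each class. Magel2 and Mirg were at 0 in the oocyte-like class, and Smoc1 was at 0 in the 2-cell-like class. A library held counts of a median of 25 members (14 to 36) in the oocyte-like and 21 (7 to 31) in the 2-cell-like class, and after thinning of 16 (11 to 25) and 15 (4 to 25).

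**Figure D1:**
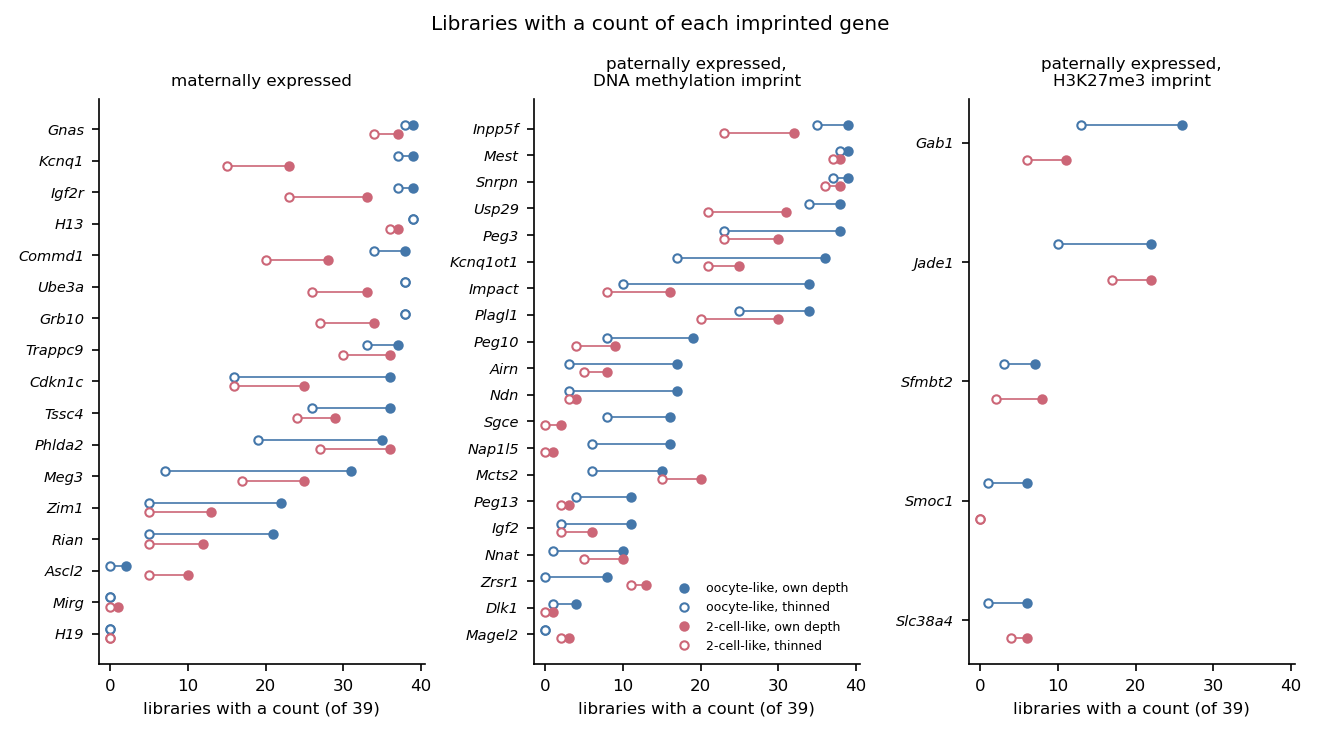
Number of libraries, of 39 in each class, with a count of each imprinted gene, by parental group; filled points are at own depth, open points after thinning each library to 100000 counts, and lines join both. Kcnq1 is found in 39 oocyte-like and 23 2-cell-like libraries at own depth, and Zrsr1 in 8 and 13, and many paternally expressed genes lie near 0 in both classes.

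Levels of different genes are compared per kb of exon (GENCODE M21 gene models). Mest, which encodes a hydrolase-like protein of growth control, led the oocyte-like class at 90.2 CPM per kb, followed by Snrpn (19.0), a spliceosome protein, H13 (14.8), the signal peptide peptidase, and Kcnq1 (13.0), a potassium channel subunit. In the 2-cell-like class the highest were Snrpn (38.4 CPM per kb), Phlda2 (37.2), Mest (36.1), Tssc4 (14.9) and H13 (12.6). Phlda2 thus stood sixth in the oocyte-like order at 9.26 CPM per kb and next to the top in the 2-cell-like order. In the 2-cell-like class the library ranges of Snrpn, Phlda2 and Mest, given below in CPM, overlap widely.

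Between classes, a member was compared where its pooled level reached 10 CPM in 1 class and it had a count in at least 50% of the libraries of the higher class. Of 42 members, 20 met this: 6 were higher in the 2-cell-like pool by 2-fold or more, 6 lower by as much, and 8 lay within 2-fold. Over the 9677 genes that met it, 20.9% passed 2-fold upward and 27.8% downward, so the count of members is close to what genes in general showed. The members' median log2 ratio was 0.13, beside -0.08 for all genes. Of the 12 maternally expressed members compared, 3 were higher, 4 lower and 5 within 2-fold. Of the 8 paternally expressed ones, 3 were higher, 2 lower and 3 within 2-fold. Since a member could pass through the class where it is high, these counts describe the 20 and not the 42. Without the filter, 24 members had a ratio above 1 and 17 below. Genes in general also gave more 2-fold ratios upward without the filter. Of 27797 genes with a count, 10196 were at least 2-fold higher and 6534 lower, with a median log2 ratio of 0.36. A class with no count was set to a floor of 3 counts, 0.0268 CPM in the oocyte-like and 0.0462 CPM in the 2-cell-like class. A gene with very few counts, all oocyte-like, can thus pass as higher in the 2-cell-like pool. How many genes this touches was not computed, so the unfiltered split is not read as a lean.

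**Figure D2:**
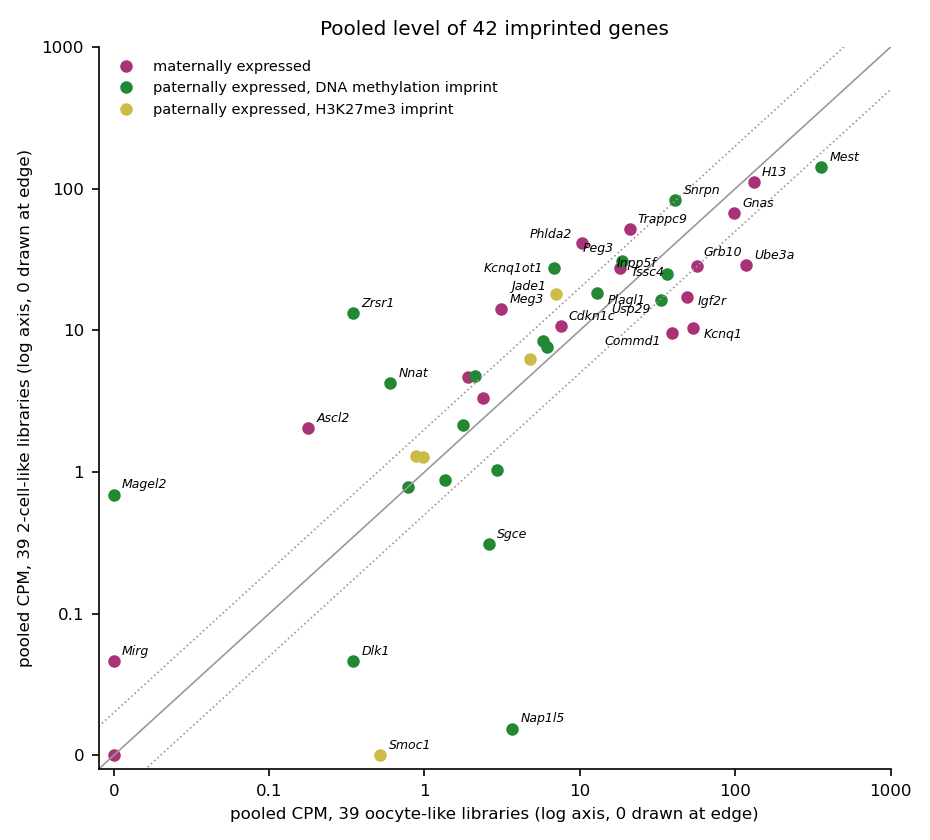
Pooled level of each of the 42 imprinted genes in the 39 oocyte-like (x axis) and 39 2-cell-like libraries (y axis), in CPM on log axes, coloured by parental group; the solid line marks equal levels and dotted lines a 2-fold difference. Mest is the highest in both pools, and members of each parental group lie on both sides of the solid line.

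Among maternally expressed genes, 4 were lower in the 2-cell-like pool. Kcnq1 ran from 1.19 CPM to 129 CPM in oocyte-like libraries (median 46.7) and from 0 to 41.1 CPM in 2-cell-like ones (median 2.32), and its pooled level was 5.13-fold lower (interval 4.74 to 5.57). Of the 39 2-cell-like libraries, 18 lay below the lowest oocyte-like one and 16 were at 0. Ube3a, a ubiquitin ligase imprinted in neurons, ran from 0 to 239 CPM (median 109) in oocyte-like and from 0 to 161 CPM (median 14.5) in 2-cell-like libraries, 4.05-fold lower when pooled (3.86 to 4.25). Only 1 oocyte-like library had no Ube3a count. The ranges overlapped, yet in 7.76% of all pairs of libraries was the 2-cell-like one the higher. Igf2r, the receptor that clears the growth factor IGF2, ran from 10.1 to 100.3 CPM (median 45.2) in oocyte-like and from 0 to 72.6 CPM (median 8.76) in 2-cell-like libraries, 2.87-fold lower when pooled (2.69 to 3.06). Of the 39 2-cell-like libraries, 20 lay below every oocyte-like one.

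Commd1, a regulator of copper transport and NF-kB, was the fourth. It ran from 0 to 218 CPM (median 23.9) in oocyte-like and from 0 to 52.6 CPM (median 6.22) in 2-cell-like libraries, and its pooled level was 4.05-fold lower (3.73 to 4.41). The 17 oocyte-like libraries over 0.05% in somatic markers had a pooled Commd1 level of 66.2 CPM and the other 22 had 20.4 CPM. Against the 22 alone the 2-cell-like level was 2.12-fold lower. Commd1 shares 412 exon bases with Zrsr1, a paternally expressed retrogene on the other strand, and the library kit does not mark strand. The shared bases are 6.94% of the Commd1 and 9.17% of the Zrsr1 exon bases, and reads on them cannot be told apart. All 13 2-cell-like libraries with a Zrsr1 count had a Commd1 count (median 15.5 CPM), and of the 26 without, 15 had one (median 1.19 CPM). Whether shared reads take part in this was not tested.

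The maternally expressed genes that were higher in the 2-cell-like pool were Meg3, Phlda2 and Trappc9. Phlda2, a protein that restrains placental growth, ran from 0 to 33.3 CPM (median 7.23) in oocyte-like and from 0 to 220.3 CPM (median 34.9) in 2-cell-like libraries. Its pooled level was 4.02-fold higher (3.75 to 4.31), and 20 of 39 2-cell-like libraries lay above every oocyte-like one. Thinning did not turn this: a count was found in 19 oocyte-like and 27 2-cell-like libraries at 100000 counts. Trappc9, a subunit of a vesicle trafficking complex, ran from 0 to 55.4 CPM (median 20.2) and from 0 to 254 CPM (median 35.7), 2.47-fold higher when pooled (2.34 to 2.60). By the library medians its log2 ratio was 0.79, under 2-fold. Meg3, a long noncoding RNA of the Dlk1 cluster, ran from 0 to 17.4 CPM (median 2.07) and from 0 to 121 CPM (median 7.11), 4.53-fold higher when pooled (4.00 to 5.14). Library 31 held 33.6% of its 2-cell-like counts, and without that library Meg3 was 3.13-fold higher but under the 10 CPM needed for a comparison.

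The 5 other maternally expressed genes compared lay within 2-fold. Grb10, an adaptor that restrains insulin signalling, was 1.99-fold lower in the 2-cell-like pool (56.5 CPM against 28.4 CPM), at the edge of a call. Its log2 ratio of -0.99 became -1.21 with TMM and -1.12 with DESeq2 scaling, which are other ways to set library size. H13 had 131 CPM and 112 CPM, and Gnas, the G protein alpha subunit, 98.3 CPM and 67.1 CPM. For Gnas the pooled level was 157 CPM in the 17 oocyte-like libraries over 0.05% in somatic markers and 57.7 CPM in the 22 others, and against those 22 the 2-cell-like level was 1.16-fold higher, not lower. Cdkn1c, a cyclin-dependent kinase inhibitor, and Tssc4, a splicing assembly factor, had pooled ratios of 1.43 and 1.52, but the median 2-cell-like library held less Cdkn1c (3.10 CPM) than the median oocyte-like one (6.08 CPM).

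**Figure D3:**
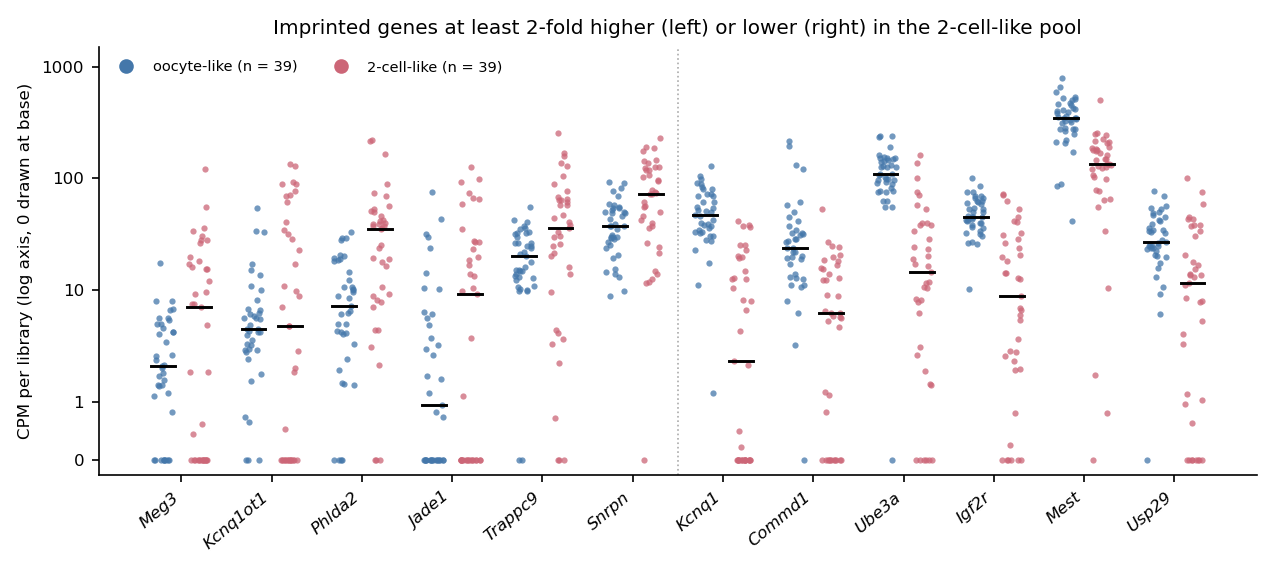
Level per library of the 12 imprinted genes with a pooled difference of at least 2-fold, in CPM on a log axis with 0 drawn at the base; each point is 1 library, bars are medians, and genes left of the dotted line are higher and those right of it lower in the 39 2-cell-like libraries. The 2-cell-like medians of Kcnq1 (2.32 CPM), Igf2r (8.76 CPM) and Ube3a (14.5 CPM) lie below most oocyte-like points, and the 2-cell-like points of Kcnq1ot1 spread from 14 at 0 to 9 at 50 CPM or more.

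Among paternally expressed genes with a DNA methylation imprint, Mest and Usp29 were lower and Kcnq1ot1 and Snrpn higher in the 2-cell-like pool. Mest ran from 41.4 to 793 CPM (median 347) in oocyte-like and from 0 to 498 CPM (median 136) in 2-cell-like libraries, 2.50-fold lower when pooled (2.45 to 2.56). It was counted in all 39 oocyte-like and 38 2-cell-like libraries. Snrpn ran from 8.88 to 93.1 CPM (median 37.7) and from 0 to 228 CPM (median 72.1), 2.02-fold higher when pooled (1.94 to 2.10). This sits at the 2-fold line: leaving out any of 19 libraries took it under, and its log2 ratio was 0.79 with TMM and 0.89 with DESeq2 scaling. Snurf, which is read from the same transcript as Snrpn, was 2.03-fold higher, and it was named after its value was seen.

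Usp29, a deubiquitinase gene that starts beside Peg3, ran from 0 to 76.4 CPM (median 26.9) in oocyte-like and from 0 to 101 CPM (median 11.4) in 2-cell-like libraries, 2.03-fold lower when pooled (1.90 to 2.18). Leaving out any of 17 libraries took it under 2-fold, and by the mean of library levels its log2 ratio was -0.75. Peg3, a zinc finger protein of growth and maternal behaviour, went the other way within 2-fold, with medians of 15.6 CPM and 26.4 CPM and a pooled ratio of 1.67 (1.57 to 1.78). The pair shares the start region printed above for Peg3. Of the 39 2-cell-like libraries, 25 held counts of both, 5 of Peg3 only, 6 of Usp29 only and 3 of neither.

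Kcnq1ot1 ran from 0 to 54.5 CPM (median 4.46) in oocyte-like and from 0 to 135 CPM (median 4.78) in 2-cell-like libraries, 4.03-fold higher when pooled (3.70 to 4.39). The medians were almost equal while the 2-cell-like libraries spread widely, with 14 at 0 and 9 at 50 CPM or more, against 3 and 1 of the oocyte-like ones. Its pooled oocyte-like level was 11.2 CPM over and 3.75 CPM at or under 0.05% in somatic markers. Kcnq1ot1 overlaps Kcnq1 on the other strand by 121 exon bases. In the 2-cell-like class 17 libraries held counts of both, 6 of Kcnq1 only, 8 of Kcnq1ot1 only and 8 of neither. Its promoter window, with 9 CpG sites, and that of Phlda2, with 26, stand above. The other 2 of this group compared were within 2-fold: Plagl1, a zinc finger transcription factor, with a pooled ratio of 1.41 but medians of 11.9 CPM and 5.51 CPM, and Inpp5f, a phosphoinositide phosphatase, with 36.2 CPM and 25.1 CPM.

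Of the H3K27me3 group only Jade1, a scaffold of a histone acetyltransferase complex, was compared. It ran from 0 to 74.7 CPM (median 0.930) in oocyte-like and from 0 to 128 CPM (median 9.30) in 2-cell-like libraries, 2.55-fold higher when pooled (2.32 to 2.79), and it had a count in 22 of 39 libraries of each class. Its oocyte-like counts lay mostly in libraries with somatic markers: the 17 over 0.05% held 93.3% of them, and library 61, with the highest marker share, held 42.0%. The pooled level was 16.2 CPM in the 17 and 0.799 CPM in the 22 others. Without library 61 Jade1 was 4.21-fold higher in the 2-cell-like pool, and without the 17 it was 22.5-fold higher. Whether somatic RNA takes part in the oocyte-like level was not tested.

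The same lean toward libraries with somatic markers was seen in other members. Of the 39 members with an oocyte-like count, 26 had more than 40.7% of it in the 17 libraries, the share those libraries hold of all counts. How many of all genes lean this way was not computed, so the count is not read as a trait of imprinted genes. The 17 held 98.1% of the counts of Mcts2, 96.9% of Sgce, 96.3% of Nap1l5, 86.6% of Rian, 74.2% of Peg10, 69.0% of Commd1 and 65.2% of Gnas, and all counts of Dlk1 and Smoc1. They held 33.7% of Mest, 30.3% of Kcnq1 and 22.4% of Cdkn1c, under their share of all counts. Library 86, which had 0.643% of its counts in somatic markers, almost no oocyte marker RNA and no Mos or Zfp352, held Commd1 at 180 CPM, Gnas at 376 CPM, H13 at 371 CPM and Snrpn at 160 CPM, and no count of Mest, Kcnq1, Peg3 or Usp29. Its Jade1 level was 1.68 CPM.

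**Figure D4:**
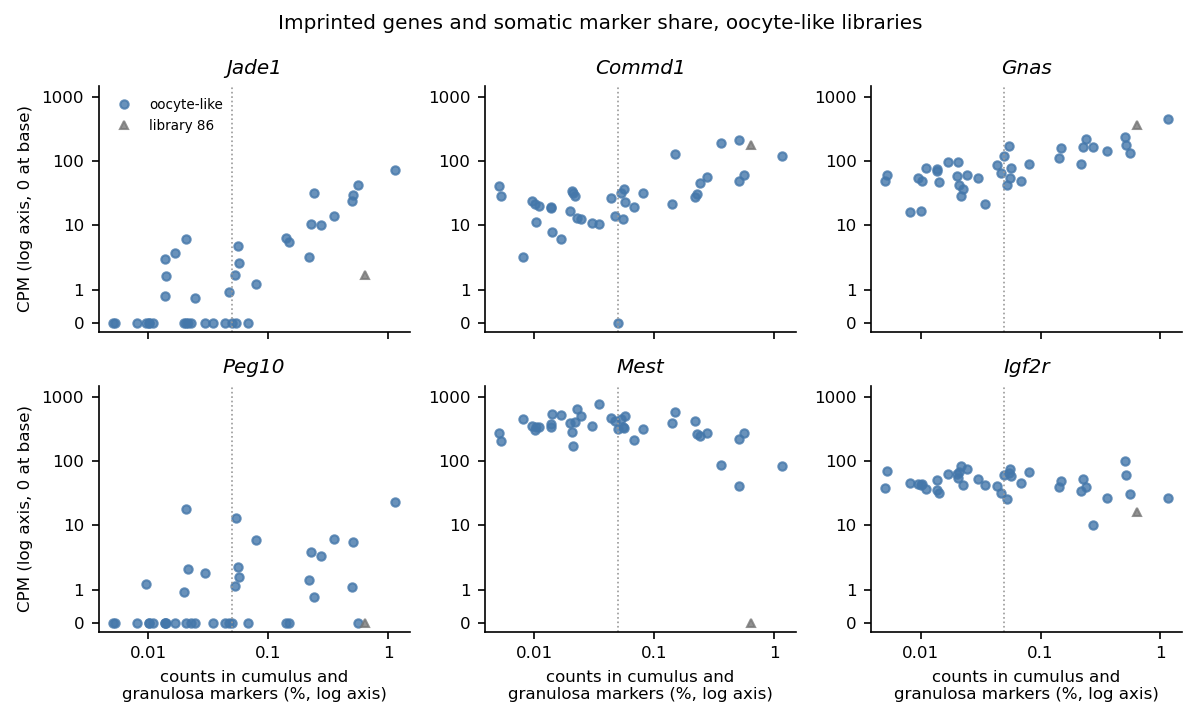
Level of 6 imprinted genes, picked after their values were seen, against the share of counts in 22 cumulus and granulosa markers, for the 39 oocyte-like libraries (circles) and library 86 (triangle), on log axes with a level of 0 drawn at the base; the dotted line is 0.05%. The highest oocyte-like levels of Jade1, Commd1 and Gnas lie right of the line, where Jade1 also has libraries at 0 and library 86 at 1.68 CPM, while Igf2r stays level and Mest is lower in the libraries farthest right, with no count in library 86.

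The 22 members that were not compared were low or found in few libraries. Among them 4 had large ratios toward the 2-cell-like pool. Zrsr1, a splicing factor retrogene, had 39 counts in 8 oocyte-like libraries and 858 counts in 13 2-cell-like ones, 0.348 CPM against 13.2 CPM, and library 36 alone held 42.8% of the latter. The ratio of 38.0 became 22.5 without that library. After thinning it was found in 0 oocyte-like and 11 2-cell-like libraries. Magel2, a ubiquitin ligase partner of the Prader-Willi region, had no oocyte-like count and 45 counts in 3 2-cell-like libraries, at least 25.9-fold higher against a floor of 3 counts over the class, and library 46 held 53.3% of them (at least 12.3-fold without it). Nnat, a small membrane protein of neurons, had 0.598 CPM and 4.22 CPM with a count in 10 libraries of each class, and 7.06-fold became 3.30-fold without library 31. The maternally expressed Ascl2, a trophoblast transcription factor, had 0.179 CPM in 2 oocyte-like libraries and 2.03 CPM in 10 2-cell-like ones, 11.4-fold higher and 73.6-fold without library 52.

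Other low members were lower in the pooled 2-cell-like class. Nap1l5, a nucleosome assembly gene inside Herc3, had 411 counts in 16 oocyte-like libraries and 1 count in 1 2-cell-like library, a ratio of 0.00420 (interval 0.000106 to 0.0235). That count was in library 47, and without library 47 Nap1l5 was at least 76.8-fold lower. Sgce, a sarcoglycan, had 290 counts in 16 and 20 counts in 2 libraries, 8.40-fold lower (32.4-fold without library 8), and Peg10, its retrotransposon-derived neighbour, 326 counts in 19 and 67 counts in 9. Smoc1, a secreted matrix protein, had 58 counts in 6 oocyte-like libraries and none in the 2-cell-like class, at least 11.2-fold lower, a bound that became 6.84-fold when library 61 was left out. Dlk1, a Notch ligand homologue, had 39 counts in 4 and 3 counts in 1 library, 7.53-fold lower (interval 2.40 to 38.1), and 3.62-fold lower with library 61 left out. As given above, the 17 libraries with somatic markers held from 74.2% (Peg10) to all (Dlk1 and Smoc1) of these oocyte-like counts. Against the 22 other oocyte-like libraries, with Sgce at 0.136 CPM, Sgce was 2.27-fold higher in the 2-cell-like pool. Library 8 held 75.0% of the 2-cell-like Sgce counts, so this direction rests on 1 library. Peg10 was 1.23-fold lower against the 22, Nap1l5 was at only 0.226 CPM in the 22, and Dlk1 and Smoc1 had no count to compare with.

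The remaining members were low in both pools, and several of their ratios rested on 1 library. Igf2, the growth factor, was at 0.786 CPM in both, but 1.54-fold higher in the 2-cell-like pool without library 93 and 1.51-fold lower without library 46. Airn, the noncoding RNA that silences Igf2r on the paternal chromosome, had 1.78 CPM and 2.16 CPM, counted in 17 and 8 libraries, and was 1.38-fold lower in the 2-cell-like pool without library 36. Mcts2, a retrogene inside H13, had 5.75 CPM in 15 oocyte-like and 8.46 CPM in 20 2-cell-like libraries, 0.181 CPM in the 22 oocyte-like libraries at or under 0.05%, and both Mcts2 and Zrsr1 resemble parent genes elsewhere, so their counts are uncertain. Impact, a regulator of the Gcn2 kinase, had 6.18 CPM and 7.57 CPM, in 34 and 16 libraries. Ndn, a MAGE family protein, had 2.10 CPM in 17 libraries and 4.76 CPM in 4, with 59.5% of the latter in library 32. It was 1.06-fold lower in the 2-cell-like pool without library 32 and 3.82-fold higher without library 61. Rian had 2.39 CPM and 3.33 CPM, Zim1, a zinc finger gene, 1.89 CPM and 4.68 CPM, and Peg13, a noncoding RNA inside Trappc9, 1.36 CPM and 0.878 CPM. Without library 28, which held 93.0% of the 2-cell-like Peg13 counts, Peg13 was 21.3-fold lower there, and without library 78 Rian was 1.14-fold lower instead of higher. Of the H3K27me3 group, Gab1, a docking adaptor, had 4.76 CPM in 26 and 6.26 CPM in 11 libraries, Sfmbt2, a Polycomb protein, 0.884 CPM and 1.29 CPM, and Slc38a4, an amino acid transporter, 0.983 CPM and 1.28 CPM. Without library 61 Sfmbt2 was 2.21-fold and Slc38a4 3.93-fold higher in the 2-cell-like pool. Against the 22 oocyte-like libraries at or under 0.05% in somatic markers, the 2-cell-like level was higher by 2.01-fold for Peg13, 2.30-fold for Impact, 3.67-fold for Gab1, 4.71-fold for Slc38a4, 4.72-fold for Ndn, 6.13-fold for Rian and 46.8-fold for Mcts2. The Peg13 value rests on library 28, with 93.0% of the 2-cell-like counts, and only 1 of the 22 had a Peg13 count. Mirg had 3 counts in 1 2-cell-like library.

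Genes outside the 42 give context. Of 30 other imprinted genes, 12 were compared, and 3 were higher and 3 lower in the 2-cell-like pool. The largest by pooled level were Cd81, a membrane tetraspanin, with 62.3 CPM against 0.509 CPM, 122-fold lower, and Cobl, an actin nucleator, 3.31-fold higher. The oocyte-like median of Cd81 (20.9 CPM) lay under its pooled level. Cobl had a count in 33 oocyte-like and 22 2-cell-like libraries. Its 2-cell-like median (5.96 CPM) was not above its oocyte-like median, so the pooled rise was not seen in the typical library. Of 24 genes that set or keep imprints, 23 were compared, with 2 higher, 11 lower and 10 within 2-fold, to be read beside the same 20.9% higher and 27.8% lower over all genes. Dnmt1, which copies DNA methylation at replication, had 764 CPM and 54.3 CPM, 14.1-fold lower, and Zfp57, which holds imprints after fertilisation, was 3.85-fold lower (599 CPM against 156 CPM). Padi6 itself was 20.8-fold lower (4525 CPM against 217 CPM) and Nlrp5, its partner in the subcortical maternal complex, 3.89-fold lower. The higher ones, named after their values were seen, were Dppa3, which guards the maternal genome against demethylation, at 3.00-fold, and Zfp445, at 2.02-fold.

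Mutant and wild-type labels were compared within each class. Since stage labels went against the RNA in many libraries, a genotype label is given here only as a label, and Padi6 RNA does not check it because the variant changes the protein. Among oocyte-like libraries, 26 carry a wild-type label (12 oocyte and 14 2-cell labels) and 9 a mutant label, all of 2-cell embryos. Of 16 members compared, 0 were higher by 2-fold and 1 was lower in the libraries labelled mutant, beside 0.429% higher and 15.8% lower of 9093 genes, and the median log2 ratio was -0.12 against -0.05 for all genes. The lower one was Gnas, which ran from 21.6 to 453 CPM (median 84.0) under the wild-type label and from 16.2 to 133 CPM (median 56.0) under the mutant label, 2.16-fold lower when pooled (2.04 to 2.29). Its ranges overlapped, and it was 1.76-fold lower without library 61 and 1.93-fold without library 93. Somatic markers moved with this: 13 of 26 wild-type-labelled and 3 of 9 mutant-labelled libraries were over 0.05%, and among libraries at or under that share the log2 ratio of Gnas was -0.19. The most abundant member, Mest, had medians of 348 CPM and 342 CPM.

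Among 2-cell-like libraries, 7 carry a wild-type label, all of oocytes, and 30 a mutant label (19 of oocytes, 11 of 2-cell embryos). Of 21 members compared, 3 were higher by 2-fold or more and 1 lower in the libraries labelled mutant, beside 18.6% higher and 6.32% lower of 8549 genes. The median log2 ratio was -0.31, while that of all genes was 0.16. The interval of this median across members, -0.51 to 0.72, held the value of all genes, so the medians are not read as different. The 3 higher ones were maternally expressed, as were 12 of the 21 compared. With so few, this is not read as a difference between parental groups. H13 ran from 0 to 205 CPM (median 20.7) under the wild-type label and from 0 to 354 CPM (median 110) under the mutant label, 2.20-fold higher when pooled (2.03 to 2.39). In 74.3% of pairs the library labelled mutant was the higher. Without library 6 the ratio was 3.63, and without 8, 3 or 31 it was 1.89, 1.95 or 1.96. Kcnq1 had a count in 2 of 7 and 19 of 30 libraries, with pooled levels of 2.82 CPM and 12.3 CPM, 4.35-fold higher (3.07 to 6.38), and 16.1-fold without library 4. Cdkn1c had a count in 3 of 7 and 20 of 30 libraries, with 4.44 CPM and 11.3 CPM, 2.55-fold higher (1.92 to 3.45). It was 5.14-fold higher without library 3, and fell under 10 CPM, and so out of the comparison, without library 73, 83 or 88.

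Jade1 was the lower one. It ran from 0 to 98.5 CPM (median 35.1) in the 7 libraries with a wild-type label and from 0 to 128 CPM (median 2.42) in the 30 with a mutant label, 2.43-fold lower when pooled (2.15 to 2.74). It had a count in 6 of 7 and 16 of 30 libraries. With libraries of at least 1000000 counts and 8000 genes its log2 ratio was -0.84, under 2-fold. Grb10 and Tssc4 were at the edge, 1.94-fold and 1.99-fold lower. Kcnq1ot1 was within 2-fold (1.66-fold higher) but 5.18-fold higher without library 3, which held 72.6% of its wild-type-labelled counts, and Meg3 was 1.35-fold lower but 2.37-fold lower without library 31 and 1.13-fold higher without library 7. Ranges overlapped for every member named here.

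**Figure D5:**
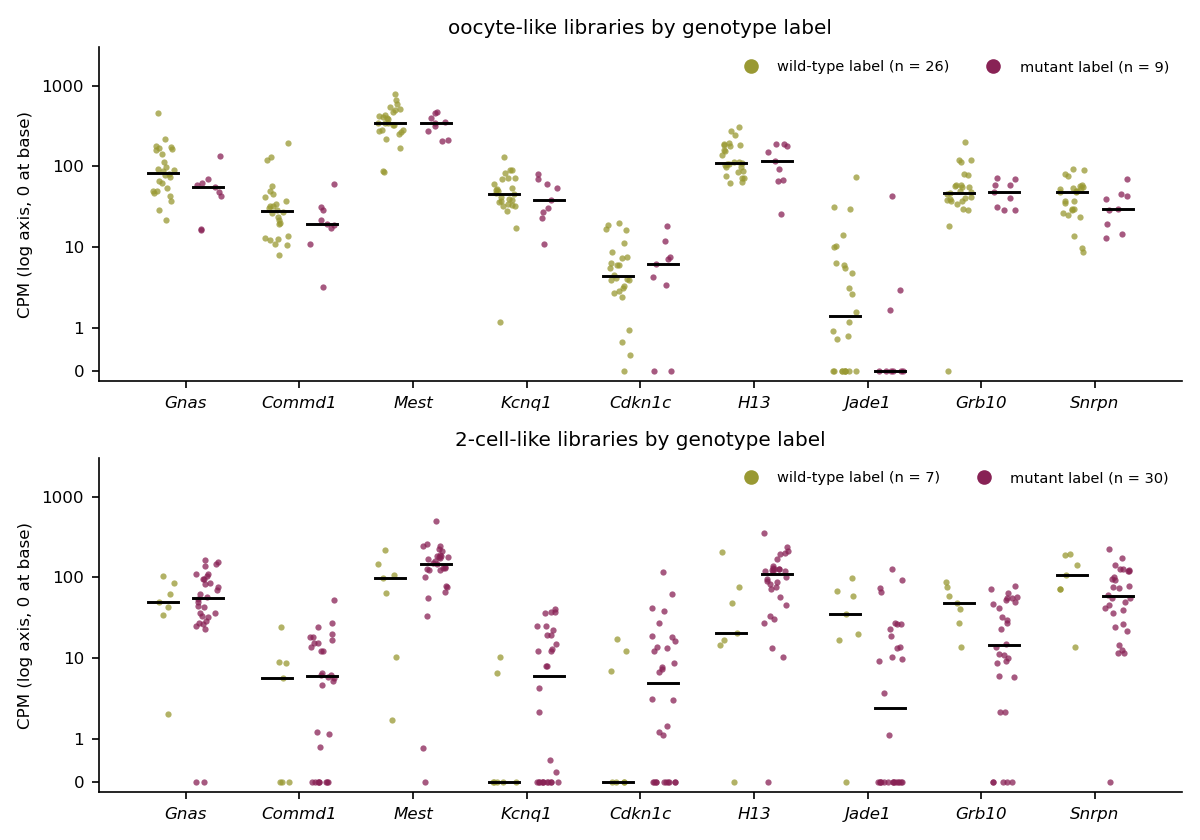
Level per library of 9 imprinted genes, by genotype label, in the oocyte-like (upper) and 2-cell-like (lower) class, in CPM on a log axis with 0 drawn at the base; each point is 1 library and bars are medians. In the upper panel the points of both labels overlap for every gene, and the medians of Gnas and Snrpn, among others, are lower under the mutant label. In the lower panel the medians of H13 (20.7 against 110 CPM) and Jade1 (35.1 against 2.42 CPM) lie apart while the points overlap.

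The libraries labelled negative control held imprinted gene RNA. The 4 in the oocyte-like class had Mest at 41.4 to 525 CPM, and the 2 in the 2-cell-like class had Mest at 136 and 208 CPM. Library 23 was at the edge of the oocyte-like class, with its lowest Mest (41.4 CPM), its highest Commd1 (218 CPM), Mcts2 (129 CPM), Airn (44.7 CPM) and Sgce (40.3 CPM), and no count of Peg3 or Usp29. Somatic markers took 0.504% of its counts. Library 95, the shallowest of the class at 162539 counts, was the only oocyte-like one with no Ube3a count. Leaving out the 6 libraries took Snrpn to a log2 ratio of 0.95 between classes and took Cdkn1c under the 10 CPM needed for a comparison; the other 18 members compared stayed on their side of 2-fold.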

How the data were processed

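The deposited table holds raw read counts per gene symbol, as the authors made them from the reads of single cells, with 36983 gene rows, of which repeated symbols were summed. Per the submitters' processing notes, Trim Galore 0.4.4, HISAT2 2.1.0, DESeq2 and the GRCm39 assembly were used. The counting tool, annotation and strand setting are not given in the sources used here. Every one of the 96 columns matched a labelled sample. From the counts, CPM, pooled levels, exact Poisson and binomial intervals (95%) and ratios were computed with Python 3.11.15, pandas 2.3.3 and scipy 1.17.1, and the scripts were tested on simulated data. Figures were drawn with matplotlib 3.10.9. TMM factors (edgeR 4.0.16) and DESeq2 1.42.0 size factors (R 4.3.3) served as alternatives only.

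The highest correlation of log2(CPM + 1) between any pair of kept libraries, across genes, was 0.9699 and no pair had identical counts. A gene was compared at 10 CPM in 1 group with a count in at least 50% of the libraries of the higher group, and called at 2-fold. A group with no count was set to a floor of 3 counts. Each library was also thinned to 100000 counts with a fixed seed. Every member may be named, and of the 2 context lists at most 4 genes each with the largest ratios, beside Padi6, Mos and Zfp352; Snurf, Dppa3 and Zfp445 fall outside this and were named after their values were seen. The members and lists were chosen with earlier results of these data known. The other alternatives were the mean and median of library levels, other gene, depth, Mos and Zfp352 thresholds, and leaving out negative control labels, libraries over 0.05% in somatic markers, or each library in turn. Not used here were the 17 columns under the depth limits and, in comparisons, library 86.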

Additional observations from a re-analysis of the deposited data

Results flagged for a closer look

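Dixon's criterion, the gap of a library to its neighbour, was applied to 37 groups of libraries that share a class and a genotype label, each for 1 imprinted gene. Of the label groups compared above, those of 4 to 10 libraries are the 9 oocyte-like libraries with a mutant label and the 7 2-cell-like libraries with a wild-type label. Of the 37 groups, 8 held a library far from the others. All 8 were at the highest end. The criterion flags about 1 in 20 groups of normal values, but CPM here is skewed and the groups reuse the same libraries. The 8 are thus not read as more than expected. Among the 9 oocyte-like libraries with a mutant label, library 87 was the highest and stood apart for Gnas (133 CPM), Commd1 (61.6 CPM) and Tssc4 (40.3 CPM). Somatic markers took 0.557% of the counts of this library, the highest share of the 9. Among the 7 2-cell-like libraries with a wild-type label, library 5 stood apart for Phlda2 (220.3 CPM), Plagl1 (132 CPM) and Commd1 (24.4 CPM), library 6 for H13 (205 CPM) and library 3 for Kcnq1ot1 (92.2 CPM). Library 86, which no comparison uses, held 21 imprinted genes above 3 counts, with Gnas and H13 the highest.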

How the results depend on the processing

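No paired analysis was possible because the labels number the cells 1 to 96 across all groups and give no shared numbers or animals. Between classes, the 6 higher and 6 lower members became 3 higher by the per-library median and 12 higher and 11 lower with no gene filter, and other alternatives kept the counts within 1.5 times. Scaling moved the median log2 ratio of all genes from -0.08 to -0.32 (TMM) and -0.22 (DESeq2), and leaving out the 17 libraries with somatic markers moved it to 0.17; by library medians the split over all genes was 1636 higher and 3686 lower, against 2026 and 2691. Within oocyte-like libraries the count of higher members under the mutant label went from 0 to 1 with Mos at 30 CPM, 1 with a 1 CPM filter and 3 with none. The count of lower members went from 1 to 0 with DESeq2 scaling, mean or median library levels, Mos at 300 CPM, no libraries with somatic markers, or no library 61, to 2 with Mos at 30 CPM, to 6 and 12 with a 1 CPM filter and none, and from 0 to 2 as single libraries were left out. Within 2-cell-like libraries the lower members went from 1 to 3 with TMM or DESeq2 scaling, to 2 with libraries of 1000000 counts and 8000 genes, to 9 by library medians, where the median log2 ratio was -0.56, and to 6 with no filter. With no filter 13 were higher. Of the 6, Dlk1 and Mirg had counts only under the mutant label, so they were not lower there. They passed as lower because the floor of 3 counts was 0.256 CPM under the wild-type and 0.0604 CPM under the mutant label. The lower members ranged from 1 to 3 as single libraries were left out. With no gene filter, 10196 of 27797 genes were higher and 6534 lower between classes. Under the mutant label 3633 of 24261 were then higher and 5852 lower within oocyte-like libraries, and 6668 of 24440 higher and 5495 lower within 2-cell-like ones. These unfiltered counts include genes with no count in 1 group, whose direction can be set by the unequal floors. With a 1 CPM filter 271 of 13773 genes were higher and 2875 lower within oocyte-like libraries. Thinning took the members found in at least 50% of oocyte-like libraries from 24 to 15. The cause was not tested in any of these. No direction of a called value reversed. Leaving out library 61 was chosen after seeing the data, and Mos at 300 CPM leaves out the same library.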
